A study of Mus musculus with 103 samples.

Results

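Collagens are the triple-helical proteins of the extracellular matrix, and the 42 mouse genes whose symbols begin with Col and follow the chain numbering of the family were described here across every tissue group of the series. They were picked out by symbol alone, in a choice made with earlier results of these data known. They made up 42 of the 17097 genes that the array's annotation named. In all, 68 probe sets measured them, and 21 of the genes had only 1 probe set. Each of the others was read from its brightest probe set by mean over all arrays. The family was divided into 11 fibrillar, 6 basement membrane, 3 other network, 6 beaded filament and related, 1 anchoring fibril, 9 fibril-associated (FACIT), 4 transmembrane and 2 multiplexin genes.

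The series held 103 mouse arrays in 29 groups. Of these, 40 came from cells bound by magnetic beads against Prom1, a surface protein of many epithelial progenitors, and sorted from untreated organs: uterus (n = 4), kidney (n = 4), lung (n = 4), stomach (n = 2), liver (n = 5), salivary gland (n = 3), prostate (n = 3) and small intestine (n = 3), together with neonatal liver (n = 3) and liver after DDC treatment (n = 9). A further 56 were dissected primary tumours: bronchopulmonary adenocarcinoma (n = 2), gastric adenocarcinoma (n = 4), gastric adenoma (n = 7), hepatoblastoma (n = 2), hepatocellular carcinoma/cholangiocarcinoma (n = 14), large intestinal adenoma (n = 5), small intestinal adenoma (n = 3), prostatic adenocarcinoma (n = 8), uterine carcinoma (n = 3) and perineal (n = 4), perioral (n = 3) and periorbital (n = 1) squamous cell carcinoma. The other 7 were metastases, each the only array of its kind. The study traced cells marked by Prom1 and targeted oncogenic changes to them. The labels give no allele, oncogene, strain or sex for any sample, no age other than neonatal, and neither the dose nor the length of the DDC treatment. Tumour RNA was prepared from whole tissue with one kit and sorted-cell RNA with another, so tumour status and material cannot be told apart, and every fall or rise may reflect the number of cells of a type or the RNA per cell, which cannot be told apart in bulk samples. The labels do not tie the samples of a group to different animals, and the p-values then reflect the spread among these samples alone, which may be technical.

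As background, fibrillar collagens (types I, III, V and relatives) assemble into the tensile fibres of connective tissue and are made mostly by fibroblasts and smooth muscle cells. Type IV chains form the sheet-like network of basement membranes under epithelia and around vessels, type VI forms beaded filaments beside that network, and type VII and the transmembrane type XVII tie squamous epithelium to the layer beneath it. Chains are hydroxylated and folded in the endoplasmic reticulum, trimmed by proteinases after secretion and cross-linked by lysyl oxidases.

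All levels below are log2 values as deposited. Values of different probe sets are not comparable with each other, so each gene is compared only with itself across samples. A level of 4.10, the 40th percentile of all values, served as a floor: levels at or under it were treated as not distinguishable from background, and a difference from a group at the floor is a lower bound. By group means, 8 members did not pass the floor in any group (Col2a1, Col6a5, Col9a2, Col11a2, Col12a1, Col19a1, Col22a1 and Col24a1), and 3 of them, Col6a5, Col9a2 and Col12a1, did not pass it in any sample. Col18a1 and Col27a1 were above it in all 29 groups, and the other 32 members were above it in some groups only. Array medians lay between 3.82 and 4.24, and the actin 3′ minus 5′ difference, a measure of RNA integrity, ran from 0.4 to 1.8 with its highest group mean in sorted kidney (1.72) and a mean of 1.45 in sorted liver, against 0.81 in sorted uterus and 0.68 in uterine carcinoma. The highest median was that of sorted lung replicate 3. The 75th percentiles of the sorted lung arrays were 6.69, 6.39, 5.76 and 6.03 in replicates 1 to 4.

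**Figure D1:**
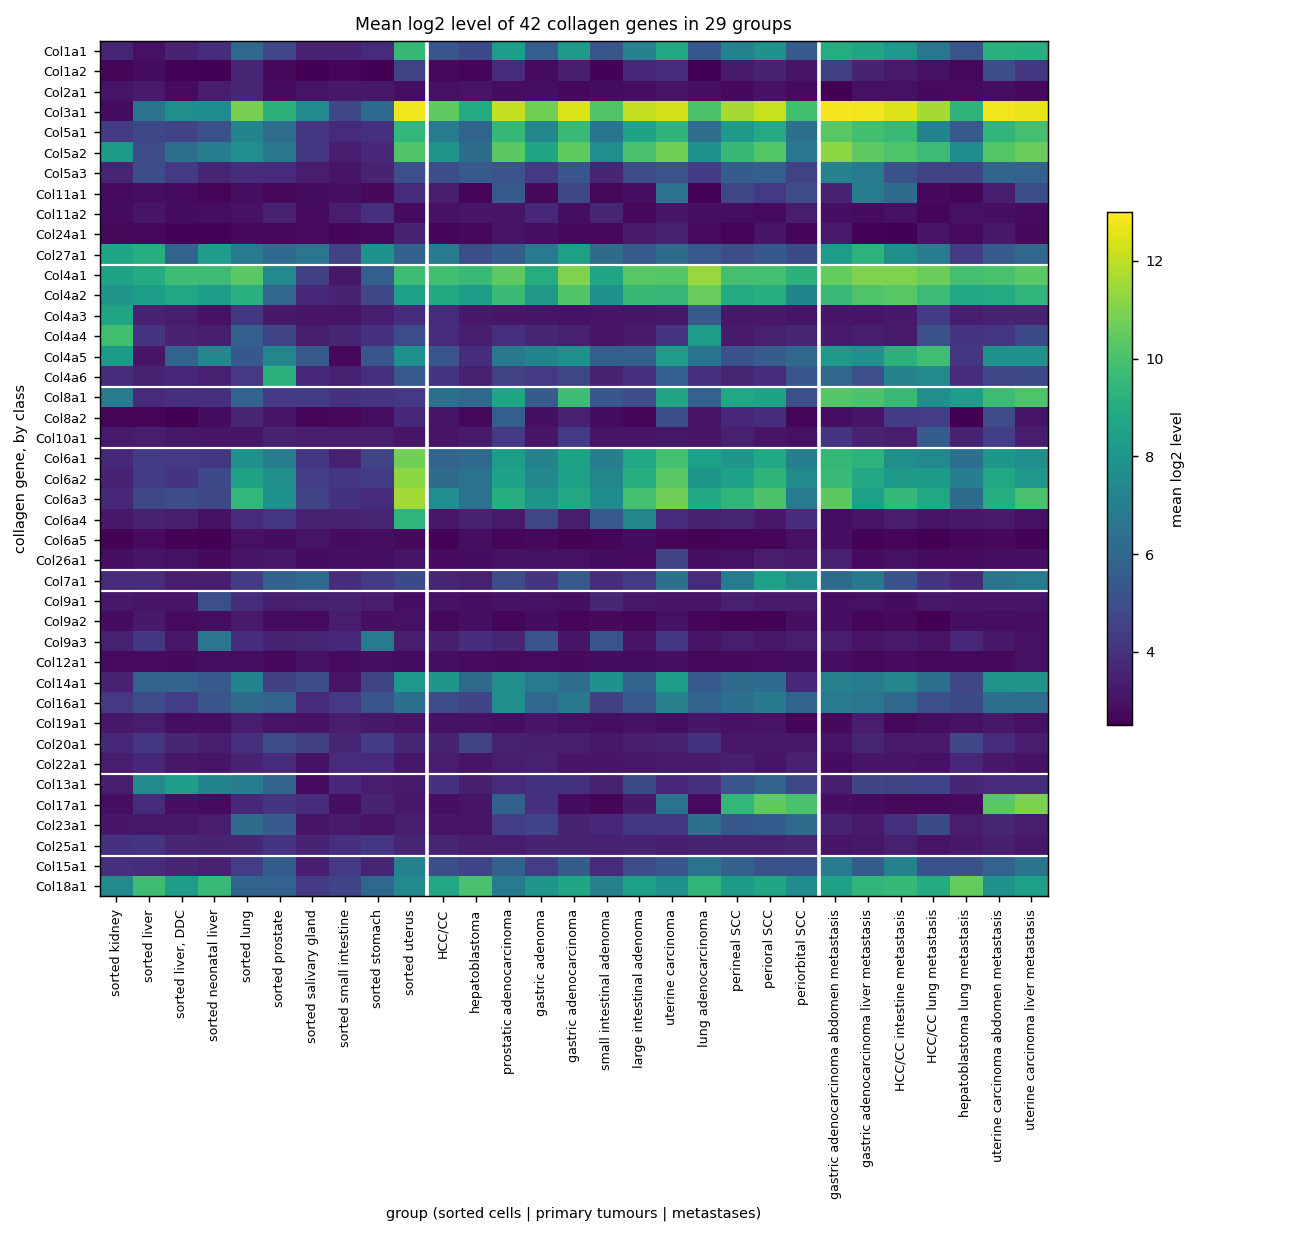
Mean log2 level of the 42 collagen genes (rows, ordered by class) in the 29 groups (columns: sorted cells, primary tumours, metastases), on a colour scale of log2 units. Rows are to be read across only, since probe sets are not comparable with each other; Col3a1 runs from a mean of 2.87 in sorted kidney to 12.86 in the abdominal gastric metastasis, Col4a3 and Col4a4 stand out in sorted kidney, Col4a6 in sorted prostate, and Col17a1 in the squamous cell carcinomas and the uterine metastases.

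The sorted organs differed widely in how much collagen transcript they carried. Each organ was set against the mean of the other 7 untreated organs, neonatal liver left out, with limma over all tested genes. A difference was called at a Benjamini-Hochberg adjusted p of at most 0.05 and a size of at least 1 on the log2 scale. Of the 29 members that passed the floor in this fit, 16 were called higher and 1 lower in uterus, where 15.3% of all tested genes were called higher and 7.38% lower. Lung had 14 higher and 0 lower against 12.8% and 18.6%, and prostate 9 higher and 1 lower against 10.4% and 7.26%, a count that fell to 5 in all without sorted prostate replicate 1. In each of these organs the members' share of higher calls was above the share over all genes. Small intestine had 0 higher and 16 lower against 14.3% and 15.1%, salivary gland 1 and 15 against 10.9% and 9.57% (20.4% either way), and liver 6 and 10 against 10.1% and 18.2%. Kidney was mixed, with 9 higher and 8 lower against 16.3% and 17.2%, and stomach had 1 higher and 7 lower against 9.08% and 10%, with 4 calls in all left without sorted stomach replicate 1. The median difference of the tested members was 1.38 in uterus, 0.79 in lung, 0.67 in prostate, -0.70 in kidney, -0.73 in liver, -0.83 in stomach, -1.10 in salivary gland and -1.37 in small intestine, beside medians between -0.28 and 0.08 over all tested genes. Where limma called 0 members in a direction, 2 in lung were lower and 0 in small intestine higher at an unadjusted p under 0.05. These comparisons share samples, and a member that passes the floor through 1 organ tends to differ there, so the counts describe the tested members only.

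Markers of other cell types differed between the organs too, some in the order of these totals and some not. The mean level of 11 fibroblast and stellate cell markers was 6.13 in sorted uterus (5.66 to 6.46, 9 of 11 above the floor), 5.66 in lung (4.76 to 6.51, 7 of 11) and 5.07 in prostate (4.38 to 5.89, 7 of 11), against 3.37 in kidney (3.31 to 3.44, 1 of 11), 3.70 in small intestine (1 of 11) and 3.57 in stomach (3 of 11). The 7 leukocyte markers averaged 10.8 in uterus and 10.1 in lung, but also 9.77 in salivary gland (9.53 to 9.92), where 7 of 7 were called higher while 15 of 29 collagens were lower. The 6 simple epithelium markers averaged 11.1 in uterus but 7.05 in lung, 7.34 in kidney and 6.61 in liver. The 8 endothelial markers averaged 8.84 in lung (7.34 to 10.9) and 8.15 in liver (5.92 to 10.3). The part of these markers in the results was not tested.

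Among the fibrillar collagens, Col3a1 (the type III chain of elastic tissues) ranged from background in kidney to some of its highest values in uterus. Its samples read 12.51, 12.79, 12.94 and 12.86 in uterus and 11.85, 11.43, 9.79 and 10.38 in lung. In kidney they read 3.20, 2.90, 2.92 and 2.44, all under the floor and below every sample of the other organs. Against the other organs, uterus was higher by 5.94 ± 0.55 (SE, adjusted p = 1e-10 by limma), lung by 3.75 ± 0.55 (adjusted p = 1e-06), and kidney was lower (-5.39 ± 0.55, a lower bound, adjusted p = 3.5e-10). The 4 uterine samples did not overlap those of any other organ, whereas the lung samples overlapped those of prostate, at 10.73, 9.14 and 7.91. Small intestine, at 5.06, 4.14 and 5.13, was also low, while salivary gland (7.31, 7.33 and 7.99) differed from the rest by only -0.04 ± 0.62 (adjusted p = 0.96).

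Col1a1, which encodes the main chain of type I collagen, followed uterus and lung but was at or near the floor elsewhere. Uterine samples read 8.89, 9.74, 10.36 and 9.19 and lung samples 7.03, 6.78, 4.88 and 5.33. Kidney, liver, salivary gland, small intestine and stomach samples all lay between 2.55 and 4.10. Uterus was higher than the other organs by 5.53 ± 0.34 (adjusted p = 3.2e-15 by limma) with no overlap, and lung by 1.48 ± 0.34 (adjusted p = 0.0005). In prostate, 1 sample read 6.66 and the other two 4.01 and 3.53, and the difference of 0.03 ± 0.39 was not called. Col1a2, the partner chain of type I collagen, read low on its probe set throughout: it exceeded the floor in 14 of the 103 samples and in the means of 4 groups, with the uterus highest among sorted cells at 3.52, 4.59, 5.48 and 4.54. Uterus was higher by 1.74 ± 0.25 (adjusted p = 1.1e-06).

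The type V chains Col5a1 and Col5a2, which control fibril diameter, separated in kidney. For Col5a2 the kidney samples read 8.18, 8.07, 8.38 and 8.25, above liver (5.74, 5.90, 4.73, 4.44 and 3.91), small intestine (3.15, 3.15 and 3.58) and stomach (4.18 and 3.21), and the organ was higher than the mean of the others by 2.41 ± 0.53 (adjusted p = 0.00027 by limma). Its genomic neighbour Col3a1 was at the floor in the same 4 kidney samples. Col5a1 read 4.41, 4.32, 4.25 and 4.24 there. Col27a1, a fibril-forming chain of cartilage, was higher in liver (7.70, 6.56, 10.31, 10.40 and 10.24; 2.41 ± 0.38, adjusted p = 2.1e-06) and lower in small intestine (4.28, 4.84 and 4.50; -2.74 ± 0.47, adjusted p = 1.2e-05), whose samples lay below all others. Replicates 3 to 5 of the untreated liver lay apart from 1 and 2 for this gene.

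**Figure D2:**
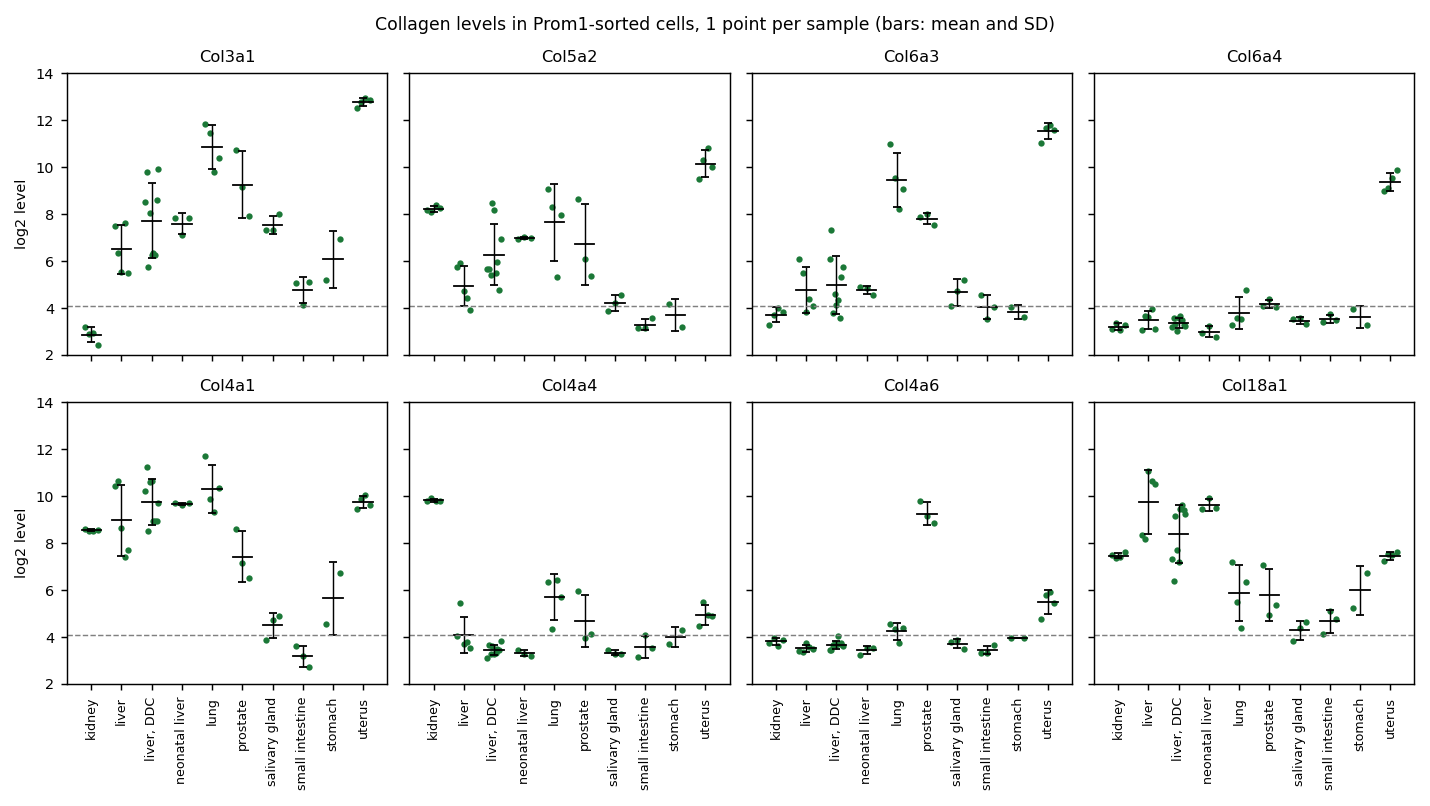
Log2 level of 8 collagen genes in each sorted sample (points), with the group mean and SD as bars and the floor of 4.10 as a dashed line, over the 10 sorted groups. Col6a4 is high in the 4 uterus samples only (9.0 to 9.86), Col4a4 in the 4 kidney samples (9.78 to 9.93), Col4a6 in the 3 prostate samples (8.84 to 9.78), and Col3a1 is under the floor in all 4 kidney samples.

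The basement membrane chains divided the sorted organs by gene pair. Col4a1 and Col4a2 encode the chains of the widespread type IV network and lie head to head on chromosome 8, Col4a3 and Col4a4 encode chains of the glomerular network, and Col4a5 and Col4a6 lie head to head on chromosome X. The promoters of the pairs on chromosomes 8 and X are shown because the data compare how their members move together. They are RefSeq windows of GRCm38.p6 from 250 bases before to 50 bases after each start site, 5′ to 3′ on the gene's own strand. In the first pair, capitals mark the 78 bases (chr8:11312777-11312854) that both windows share on opposite strands, and in the second they mark the GC box letters, GGGCGG in Col4a5 and its reverse complement in Col4a6.
Col4a1, chr8:11312777-11313076, minus strand: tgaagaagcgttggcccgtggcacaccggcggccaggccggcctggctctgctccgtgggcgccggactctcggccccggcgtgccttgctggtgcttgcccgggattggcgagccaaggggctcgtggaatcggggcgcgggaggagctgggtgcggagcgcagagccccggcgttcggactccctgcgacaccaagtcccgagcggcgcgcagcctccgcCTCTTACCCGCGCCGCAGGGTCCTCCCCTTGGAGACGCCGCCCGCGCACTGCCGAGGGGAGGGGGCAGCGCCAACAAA
Col4a2, chr8:11312555-11312854, plus strand: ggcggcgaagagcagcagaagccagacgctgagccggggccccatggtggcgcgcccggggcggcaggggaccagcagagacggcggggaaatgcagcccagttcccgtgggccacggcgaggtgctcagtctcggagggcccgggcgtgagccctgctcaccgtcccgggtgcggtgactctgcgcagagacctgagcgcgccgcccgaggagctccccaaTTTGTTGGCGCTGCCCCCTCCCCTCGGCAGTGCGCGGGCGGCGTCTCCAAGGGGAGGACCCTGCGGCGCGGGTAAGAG
Col4a5, chrX:141475169-141475468, plus strand: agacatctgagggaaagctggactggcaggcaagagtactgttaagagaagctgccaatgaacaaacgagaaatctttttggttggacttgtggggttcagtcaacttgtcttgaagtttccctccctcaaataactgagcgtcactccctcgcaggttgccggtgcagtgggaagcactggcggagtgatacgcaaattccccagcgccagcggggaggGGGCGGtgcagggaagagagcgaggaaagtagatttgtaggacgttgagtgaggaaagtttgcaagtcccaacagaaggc
Col4a6, chrX:141474027-141474326, minus strand: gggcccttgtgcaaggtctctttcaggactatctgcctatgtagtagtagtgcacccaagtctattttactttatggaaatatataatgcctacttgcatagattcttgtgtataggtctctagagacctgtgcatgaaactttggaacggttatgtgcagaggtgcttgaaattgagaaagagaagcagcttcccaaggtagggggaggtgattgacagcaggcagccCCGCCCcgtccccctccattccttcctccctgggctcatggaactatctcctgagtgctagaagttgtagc
The start sites of Col4a1 and Col4a2 were 21 bases apart, and those of Col4a5 and Col4a6 were 1343 bases apart, so that their windows did not overlap. Of the 42 members, 33 had a window in the table. GGGCGG on either strand was present in 21 of them (63.6%) against 35.9% of all 27025 promoters of that length, CCAAT in 12 (36.4% against 37.9%), TATAAA in 5 (15.2% against 14.2%) and TGANTCA in 1, that of Col6a1 (3.03% against 7.93%); none of the 4 motifs contains another. A match of letters is a description and shows no binding.

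Over the means of the 29 groups, Col4a1 and Col4a2 correlated at r = 0.98, Col4a3 and Col4a4 at r = 0.94, and Col4a5 and Col4a6 at r = 0.64, given as descriptions because the points share arrays and several organs. Neighbouring pairs of other classes gave r = 0.98 for Col6a1 and Col6a2, 0.82 for Col3a1 and Col5a2, 0.21 for Col6a4 and Col6a5, and 0.05 for Col9a1 and Col19a1, the last 2 pairs each holding a gene under the floor in every group.

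**Figure D3:**
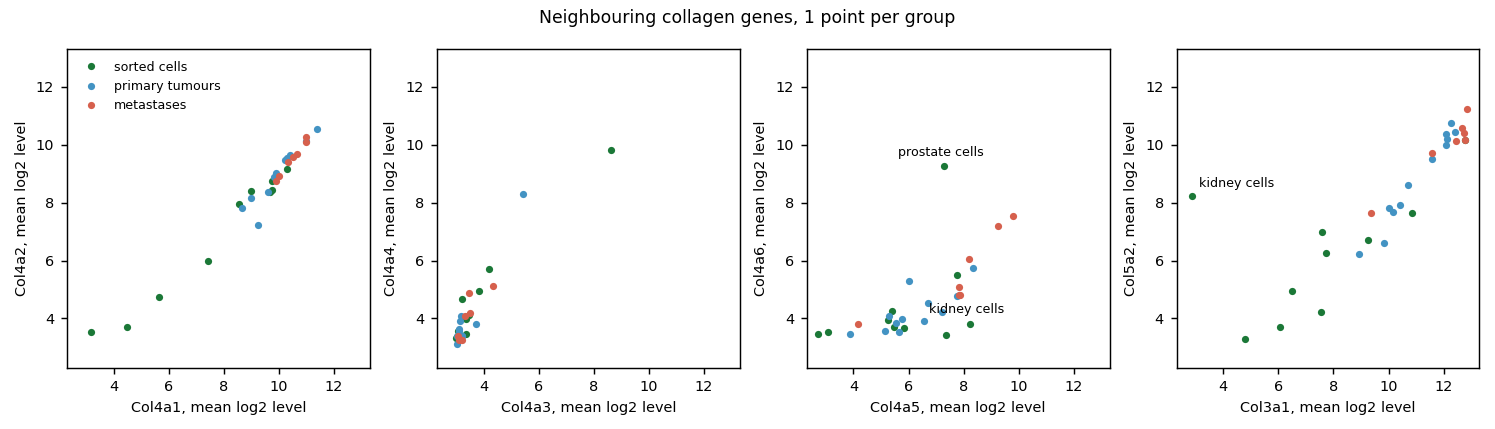
Group means (log2) of 4 neighbouring collagen gene pairs, 1 point per group (29 in each panel), coloured by sorted cells, primary tumours and metastases. Col4a1 and Col4a2 lie along a line (r = 0.98); sorted kidney stands away in the Col4a3 and Col4a4 panel through high levels of both, sorted prostate through Col4a6, and sorted kidney in the panel of Col3a1 and Col5a2 through a Col3a1 mean of 2.87 beside a Col5a2 mean of 8.22.

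Col4a1 and Col4a2 were higher in lung, uterus, liver and kidney and near the floor in salivary gland and small intestine. Col4a1 read 11.73, 9.86, 9.32 and 10.33 in lung and 10.44, 10.65, 8.66, 7.40 and 7.73 in liver, and lung was higher than the other organs by 3.45 ± 0.47 (adjusted p = 3.2e-07 by limma) and liver by 1.93 ± 0.43 (adjusted p = 0.00033). In uterus Col4a1 read 9.46, 9.87, 10.05 and 9.62 (2.81 ± 0.47, adjusted p = 1.4e-05) and in kidney 8.58, 8.50, 8.53 and 8.58 (1.43 ± 0.47, adjusted p = 0.011), with Col4a2 at 2.23 ± 0.54 (adjusted p = 0.0012) and 1.68 ± 0.54 (adjusted p = 0.0091). Small intestine read 3.62, 3.21 and 2.71 for Col4a1, under the floor and below every sample of the other organs, so that its fitted difference of -4.70 ± 0.54 (adjusted p = 7.3e-09) is a lower bound on the gap. Salivary gland was low too, at 3.88, 4.72 and 4.89 (-3.19 by the same fit). Col4a2 gave -3.39 in small intestine and -3.18 in salivary gland. Endothelial marker scores were 8.84 in lung and 8.15 in liver, but 5.56 in uterus (5.08 to 6.49) and 5.90 in kidney (5.84 to 5.99), so they did not follow the gene in the latter organs. Replicates 1 and 2 of liver were higher than 3 to 5 for Col4a1. The part of endothelial cells was not tested.

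Col4a3 and Col4a4 marked the kidney. Col4a3 read 8.75, 8.71, 8.48 and 8.55 there, while other sorted samples ran from 2.85 to 5.51. Col4a4 read 9.78, 9.93, 9.81 and 9.79, and the next samples among sorted cells were 6.45 and 6.35 in lung. Kidney was higher by 5.15 ± 0.22 for Col4a3 (adjusted p = 1.1e-20, limma) and by 5.49 ± 0.30 for Col4a4 (adjusted p = 1.4e-17), with no overlap for either. Col4a5, whose chain joins those of Col4a3 and Col4a4 in the glomerular basement membrane, was also higher in kidney (8.19, 8.14, 8.24 and 8.38; 2.96 ± 0.60, adjusted p = 9e-05) but was not specific to it, reading 7.57, 7.89, 8.17 and 7.43 in uterus. In liver it was under the floor in all 5 samples (2.82, 3.0, 3.14, 3.3 and 3.03; -2.96 ± 0.55, adjusted p = 2.6e-05).

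Col4a6, a chain known from the basement membranes of smooth muscle and some glands, marked the prostate. The 3 prostate samples read 9.78, 9.14 and 8.84, and the next highest sorted samples were 4.78 to 5.91 in uterus. The difference was 5.23 ± 0.18 (adjusted p = 1.1e-22 by limma), with no overlap. The prostate showed Col4a5 at 8.70, 7.03 and 6.17, and its call was lost without replicate 1. In kidney, where Col4a5 was high, Col4a6 stayed under the floor at 3.76, 3.98, 3.64 and 3.88.

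Type VI collagen genes, whose chains build beaded filaments, set the uterus apart. Col6a3 read 11.03, 11.69, 11.80 and 11.58 in uterus, and the highest sample of any other organ was 10.98 in lung. Uterus was higher than the other organs by 6.05 ± 0.45 for Col6a3 (adjusted p = 3e-13 by limma), by 5.92 ± 0.38 for Col6a2 and by 5.75 ± 0.40 for Col6a1, none of which overlapped with the other organs. All 3 were lower in kidney, with differences of -2.88, -2.90 and -2.33 in the same order, with every kidney sample between 3.10 and 4.06. Col6a4, another type VI chain, was near background outside the uterus. It read 9.0, 9.09, 9.52 and 9.86 in uterus, and no other sorted sample passed 4.79. The uterine difference of 5.76 ± 0.19 (adjusted p = 3.5e-23) was a lower bound, because the mean of the other organs was 3.61. The second probe set of Col6a4 tracked the first weakly over the 103 arrays (r = 0.31).

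Members of the remaining classes were high in different organs. Col8a1, a network chain of vessel walls and corneal matrix, was higher in kidney (6.96, 6.85, 6.58 and 6.70) by 2.40 (adjusted p = 6.9e-10 by limma). Lung replicate 1 exceeded kidney at 7.64. Col7a1, the anchoring fibril chain, was higher in salivary gland (6.13, 5.90 and 6.19) by 1.69 ± 0.29 (adjusted p = 2.1e-05). Prostate, at 6.08, 4.64 and 6.54, overlapped with salivary gland. Col9a3, a FACIT chain of cartilage, was higher in stomach, at 6.61 and 7.06 against no more than 4.86 in any other organ of this comparison (3.17 ± 0.26, adjusted p = 1.1e-11).

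The transmembrane collagens Col13a1 and Col23a1 rose in lung, each with a wide spread. Col13a1 read 9.61, 5.65, 4.98 and 7.34 in lung and 9.71, 9.42, 6.10, 5.10 and 6.90 in liver, with differences of 2.66 ± 0.71 (adjusted p = 0.0021 by limma) and 3.29 ± 0.65 (adjusted p = 6.5e-05). Col23a1 read 8.84, 5.97, 3.59 and 6.45 in lung (2.70 ± 0.41, adjusted p = 2.1e-06), so that 1 of the 4 samples was under the floor. Replicate 1 of lung was the highest for both genes, and replicates 1 and 2 of liver for Col13a1. Lung replicate 3, the lowest of its group for both genes, was the array with a 75th percentile of 5.76, against 6.69 in replicate 1. The part of array signal in this spread was not tested.

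The multiplexins, collagens of vessel and epithelial basement membranes, were high in different organs. Col18a1, the source of endostatin, read 8.34, 8.17, 11.06, 10.66 and 10.53 in liver, above every sample of the other organs, with a difference of 3.82 ± 0.46 (adjusted p = 1.5e-08 by limma). Replicates 1 and 2 of liver lay below 3 to 5 for Col18a1. Salivary gland, at 3.84, 4.39 and 4.63, gave -2.43 in the same fit. Col15a1 read 6.91, 7.21, 7.79 and 6.57 in uterus (2.97 ± 0.31, adjusted p = 1.4e-09), and prostate replicate 1, at 7.72, lay among the uterine samples.

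DDC treatment, a model of bile duct injury, and neonatal age were each compared with the same 5 untreated liver samples. After DDC, 2 of 19 tested members were called higher and 3 lower, against 16.2% and 5.49% of all tested genes; neonatal liver had 4 of 20 higher and 0 lower, against 22% and 8.63%. The medians of the tested members were -0.13 and -0.02, beside 0.25 and 0.31 over all genes, and the shares called higher were not above those over all genes. Of the neonatal members, 2 were lower at an unadjusted p under 0.05 where limma called 0. Without untreated liver replicate 3 or 4 the DDC count of 5 fell to 3 or 2, without DDC replicates 1, 2, 4 or 5 to 2 or 3, and without untreated liver replicate 2 the neonatal count rose to 7. The fibroblast and stellate cell score was 4.04 after DDC (3.59 to 4.75), 4.28 in untreated liver (4.15 to 4.58), so its mean was lower after DDC.

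Col4a5, Col5a2 and Col9a3 were called in both liver conditions. For Col4a5, after DDC the 9 samples ran from 2.78 to 7.58 with a median of 6.30, and neonatal samples read 7.48, 7.32 and 7.27, against 2.82 to 3.3 in untreated liver. The differences were 2.78 ± 0.62 (adjusted p = 0.00052 by limma) and 4.30 ± 0.81 (adjusted p = 6.7e-05), both lower bounds. The neonatal samples did not overlap the untreated ones, and the DDC samples did. The mean of the simple epithelium markers moved with it, from 6.61 (6.23 to 7.19) in untreated to 8.62 (5.88 to 10.2) in treated and 10.4 (10.1 to 10.6) in neonatal cells. Of the 6 markers, 5 were called higher after DDC (median 1.87) and 6 in neonatal liver (median 3.76), and their part was not tested. Col27a1 fell after DDC, from 6.56 to 10.40 in untreated cells to 5.28 to 6.48 (median 5.96) with no overlap (-3.16 ± 0.43, adjusted p = 6.4e-07). In neonatal liver it read 8.32, 8.29 and 8.48 and was not called (-0.68 ± 0.56, adjusted p = 0.34).

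Neonatal liver also carried type IX chains, and the simple epithelium markers given above were higher in the same samples. Col9a3 read 6.67, 6.67 and 6.53 against 3.78, 4.59, 4.26, 4.86 and 3.47 in untreated liver (2.43 ± 0.26, adjusted p = 6.8e-09 by limma), with no overlap. After DDC it was lower instead, from 2.88 to 3.71 with a median of 3.15 (-1.01 ± 0.20, adjusted p = 0.00016), levels at the floor and a call lost in 8 of 18 alternatives. Col9a1, its partner in type IX collagen, read 5.77, 4.23 and 5.25 (2.003 ± 0.37, adjusted p = 6.2e-05), a call that was lost when all probe sets of the gene were averaged. Col5a2 was higher in both conditions. Its neonatal samples read 6.93, 7.03 and 6.97 against 5.74, 5.90, 4.73, 4.44 and 3.91 in untreated liver (2.04 ± 0.72, adjusted p = 0.021), without overlap, and that call was lost without untreated liver replicate 5 or without any 1 neonatal sample. After DDC the difference was 1.33 ± 0.55 (adjusted p = 0.048) with overlap, a call lost in 9 of 21 alternatives. Col3a1 ran from 5.76 to 9.91 (median 8.06) after DDC against 5.48 to 7.64 before, a difference of 1.23 ± 0.57 (adjusted p = 0.079).

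In most organs the dissected tumour carried more collagen transcript than the sorted cells of the same organ. Small intestinal adenoma had 14 of 18 tested members higher and 0 lower, against 13.6% and 8.43% of all tested genes, with a median of 2.87 over the members and 0.12 over all genes. Gastric adenocarcinoma had 15 of 24 higher and 1 lower (17.9% and 10.5%; medians 2.25 and 0.18), and gastric adenoma, set against the same 2 stomach samples, 9 of 24 higher and 0 lower (8.07% and 3.07%; medians 1.70 and 0.11). At an unadjusted p under 0.05, 0 members were lower in small intestinal adenoma and 2 in gastric adenoma, where limma called 0. Prostatic adenocarcinoma had 11 of 27 higher and 3 lower (12.4% and 8.69%; medians 1.42 and 0.14), with 7 calls in all left without sorted prostate replicate 2 or replicate 3. These shares of higher calls were above those over all genes.

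Liver tumours were compared with untreated and with DDC-treated sorted liver cells. Hepatocellular carcinoma/cholangiocarcinoma had 11 of 22 tested members higher and 2 lower than untreated liver (17.4% and 6.23% of all tested genes; medians 0.98 and 0.30), and 10 of 19 higher and 1 lower than DDC-treated liver (5% and 4.99%, 9.99% either way; medians 1.42 and 0.04), the same tumours serving in both. Uterine carcinoma had only 4 of 26 higher and 2 lower (8.57% and 10.1%; medians 0.32 and 0.16), with 10 calls without carcinoma replicate 2. Bronchopulmonary adenocarcinoma had 1 of 23 higher and 0 lower (5.73% and 2.38%; medians -0.01 and 0.36; 1 lower at an unadjusted p under 0.05 by limma), and no call without either tumour sample or without sorted lung replicate 2, 2 without replicate 3 and 4 without replicate 1. In sorted cells the median member difference from the other organs was 1.38 in uterus, 0.79 in lung and 0.67 in prostate. Of these organs, prostate still had many members called higher in its tumours. The part of the sorted-cell levels in the tumour counts was not tested.

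**Figure D4:**
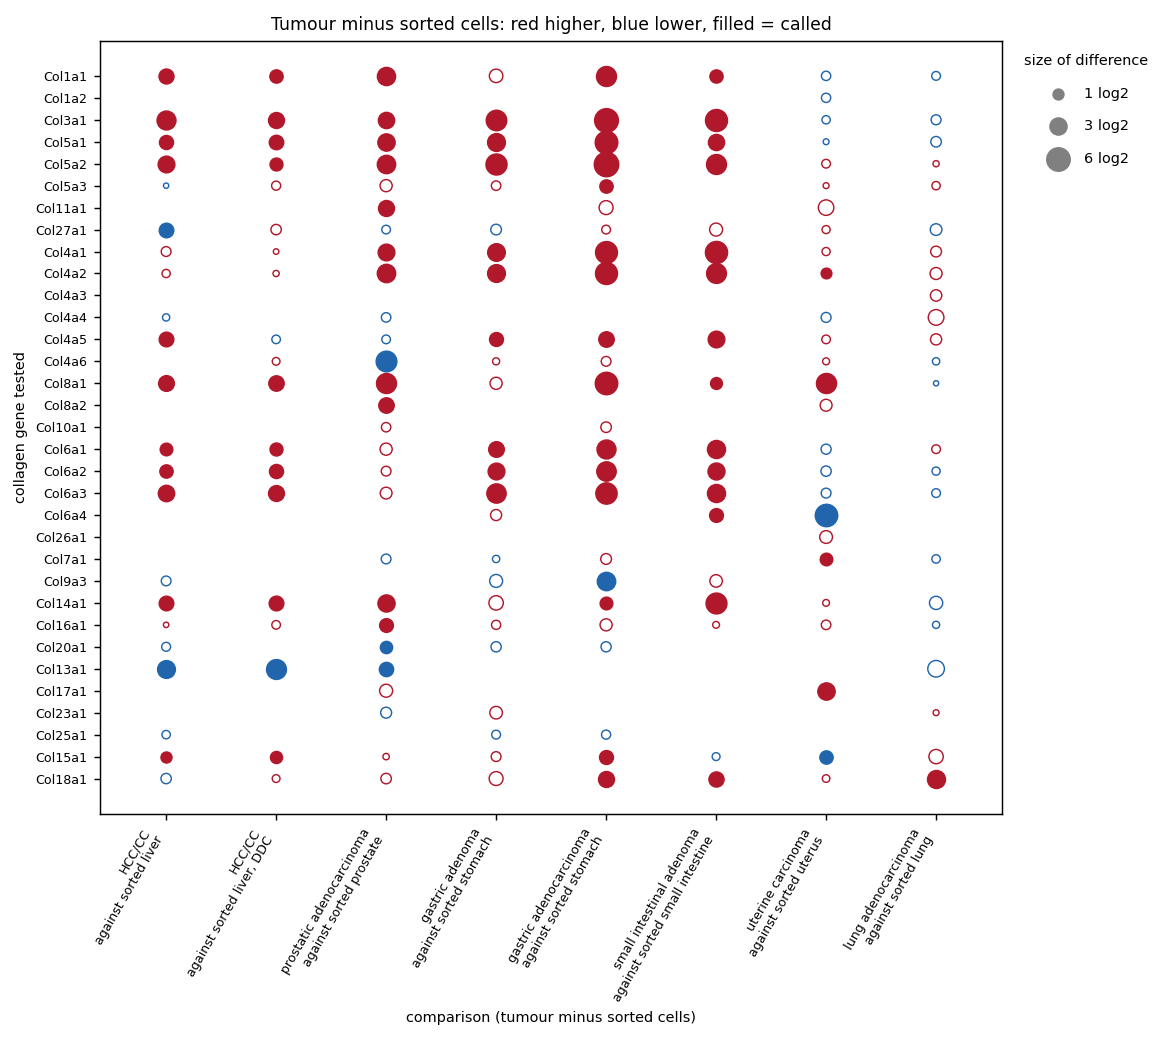
Tumour minus sorted cells of the same organ in 8 comparisons (columns), for the collagen genes tested in at least 1 of them (rows). Red is higher and blue lower in tumours, the dot size is the absolute log2 difference, and filled dots passed the call rule. The gastric adenocarcinoma and small intestinal adenoma columns hold 15 and 14 called higher members, and the uterine and lung columns 4 and 1; the columns of the liver share tumours and those of the stomach share sorted cells.

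Smooth muscle and pericyte markers had higher means in the gut, prostate and liver tumours than in sorted cells of those organs. The mean of 7 such markers was 7.40 in small intestinal adenoma (7.04 to 7.68) against 3.65 in sorted small intestine (3.54 to 3.72), 6.33 in gastric adenocarcinoma (5.41 to 7.96) and 6.67 in gastric adenoma (5.89 to 7.50) against 4.59 in sorted stomach (4.45 to 4.73). Prostatic adenocarcinoma averaged 7.73 (6.35 to 8.58) against 5.01 in its sorted cells, and hepatocellular carcinoma/cholangiocarcinoma 5.77 (5.09 to 6.81) against 4.63 (4.34 to 5.09). Of these markers, 6 of 6 tested were called higher in small intestinal adenoma, 5 of 7 in prostatic adenocarcinoma, 3 of 6 in gastric adenoma and 2 of 6 in gastric adenocarcinoma. In the liver tumours 3 of 4 were called higher against untreated cells and 1 of 4 against DDC-treated cells. In bronchopulmonary adenocarcinoma 0 of 6 were called in either direction by limma, with 0 higher and 1 lower at an unadjusted p under 0.05. Uterine carcinoma had calls in the higher direction only among 6 tested, though no fibrillar gene was called there. Fibroblast and stellate cell scores were 4.82 (4.22 to 5.46) in gastric adenocarcinoma against 3.57 in sorted stomach, and 4.08 (3.95 to 4.28) in small intestinal adenoma against 3.70. Leukocyte scores were 8.01 (7.68 to 8.40) in gastric adenocarcinoma against 5.26 (4.97 to 5.54) in sorted stomach, with 7 of 7 markers called higher (median 2.42). The part of these cell types in the collagen differences was not tested.

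Fibrillar genes were among those higher in the tumours of the stomach, intestine and liver. Col3a1 read 12.35, 12.75, 12.49 and 12.003 in gastric adenocarcinoma against 5.21 and 6.93 in sorted stomach, and 9.95 to 12.10 (median 10.54) in gastric adenoma. The adenocarcinomas were higher than sorted stomach by 6.32 ± 0.44 (adjusted p = 9.7e-05 by limma) and the adenomas by 4.64 ± 0.58 (adjusted p = 0.0019), with no overlap in either case. Col5a2 read 10.43, 9.91, 10.80 and 10.62 in the adenocarcinomas against 4.18 and 3.21 (6.74 ± 0.37, adjusted p = 3.6e-05). Col5a1 gave 5.70 ± 0.33 (adjusted p = 3.8e-05) and Col1a1 4.38 ± 0.45 (adjusted p = 0.00048). In the adenomas Col1a1 ran from 4.06 to 7.67 and its difference of 1.84 ± 0.95 was not called (adjusted p = 0.21).

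In the small intestine, adenoma samples of Col3a1 read 10.83, 8.87 and 10.77 against 5.06, 4.14 and 5.13 (5.38 ± 0.56, adjusted p = 0.0012 by limma). Col5a2 was higher by 4.37 ± 0.46 (adjusted p = 0.0012) without overlap. Col1a1 read 6.03, 4.02 and 5.69 against 3.42, 2.996 and 4.10 and overlapped. Its call (1.74 ± 0.56, adjusted p = 0.05 by limma) was lost in 9 of 12 alternatives, quantile normalization and median centring among them. In the liver, the 14 tumours ran from 8.65 to 12.31 for Col3a1 (median 10.47) against 5.48 to 7.64 in untreated cells, a difference of 3.91 ± 0.52 (adjusted p = 1.8e-05) without overlap, and of 2.68 ± 0.53 (adjusted p = 0.00085) from DDC-treated cells, with overlap. Col1a1 ran from 3.77 to 7.72 (median 4.98) against 2.55 to 3.46 (2.34 ± 0.55, adjusted p = 0.0024). Each liver tumour was above each untreated sample for both genes.

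Prostatic adenocarcinoma showed large but uneven fibrillar levels. Col1a1 ran from 4.61 to 10.57 with a median of 9.10 over 8 tumours, against 6.66, 4.01 and 3.53 in sorted prostate, and overlapped. Its difference of 3.59, those of Col3a1 (2.81), Col5a1 (3.21) and Col5a2 (3.66) passed the test with all samples, but each lost its call without sorted prostate replicate 2 or 3 or under other settings. Sorted prostate replicate 1 was the highest of its group for these 4 genes. In uterine carcinoma no fibrillar gene passed the test against sorted uterus: Col3a1 read 12.77, 11.01 and 13.04 against 12.51, 12.79, 12.94 and 12.86 (-0.50 ± 0.44, adjusted p = 0.4), and Col1a1 9.41, 6.71 and 10.39 against 8.89 to 10.36 (-0.71 ± 0.80, adjusted p = 0.51).

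The type IV pair on chromosome 8 was higher in the gut and prostate tumours. Col4a1 read 9.01, 8.25 and 8.72 in small intestinal adenoma against 3.62, 3.21 and 2.71 in sorted cells (at least 5.48, SE 0.32, adjusted p = 0.00025 by limma), and 11.09, 10.86, 10.60 and 11.38 in gastric adenocarcinoma against 4.56 and 6.75 (5.33 ± 0.55, adjusted p = 0.0005). Prostatic adenocarcinoma ran from 8.66 to 11.48 (median 10.57) against 8.60, 7.17 and 6.50 (2.98 ± 0.63, adjusted p = 0.0037), with Col4a2 at 3.67 ± 0.74 (adjusted p = 0.0029). None of these groups overlapped, although the highest sorted prostate sample, at 8.60, lay just under the lowest tumour. In gastric adenoma the Col4a1 call (3.34 ± 0.68, adjusted p = 0.012) was lost without sorted stomach replicate 1. In the liver neither gene was called: Col4a1 gave 0.83 ± 0.50 against untreated (adjusted p = 0.19) and 0.05 ± 0.36 against DDC-treated cells (adjusted p = 0.93), where the sorted cells were themselves high. Endothelial markers fell in the liver tumours, 6 of 8 tested being called lower in each comparison, with scores of 6.49 (5.93 to 7.23) against 8.15 (5.92 to 10.3) untreated.

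The other type IV chains did not follow that pair. Col4a6 ran from 3.49 to 5.74 (median 4.52) in prostatic adenocarcinoma against 9.78, 9.14 and 8.84 in sorted prostate, a difference of -4.72 ± 0.39 (adjusted p = 1.3e-05 by limma) with no overlap, while Col4a5 differed by -0.58 ± 0.50 and was not called (adjusted p = 0.37). Col4a4, low in most tumours, read 8.10 and 8.49 in the 2 lung tumours against 6.35, 4.35, 6.45 and 5.69 in sorted lung. These groups did not overlap, but with 2 tumours the difference of 2.58 ± 0.72 missed the threshold (adjusted p = 0.052). Col18a1 was the 1 member called in the lung comparison (8.82 and 9.92 against 7.19, 5.51, 4.39 and 6.36; 3.51 ± 0.80, adjusted p = 0.022), and that call was lost without either tumour or without sorted lung replicate 2.

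Type VI genes rose in the gut and liver tumours and Col6a4 fell in the uterus. In gastric adenocarcinoma Col6a1 read 8.58, 9.58, 8.38 and 7.79 against 4.40 and 4.88 (3.94 ± 0.49, adjusted p = 0.0012 by limma), with Col6a2 at 4.13 and Col6a3 at 5.02. In small intestinal adenoma Col6a1 read 7.08, 6.71 and 7.16 against 3.96, 2.93 and 3.41 (3.55 ± 0.31, adjusted p = 0.00073). In the liver tumours Col6a3 ran from 5.64 to 9.59 (median 7.93) against 3.82 to 6.10 in untreated cells (2.86), and overlapped. Uterine carcinoma read 4.08, 4.07 and 3.11 for Col6a4 against 9.0, 9.09, 9.52 and 9.86 in sorted uterus, a drop to the floor (-5.61 ± 0.32, a lower bound, adjusted p = 4.8e-05) with no overlap. Col6a1, Col6a2 and Col6a3 were not called there (-0.89 ± 0.62, -0.95 ± 0.54 and -0.83 ± 0.85). The fibroblast score was 4.98 in the carcinomas (4.64 to 5.38) against 6.13 in sorted uterus, and all 7 leukocyte markers were lower.

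Col8a1 rose in tumours of 5 organs. It read 10.18, 9.40, 10.45 and 8.98 in gastric adenocarcinoma against 4.07 and 4.13 in sorted stomach (5.65 ± 0.44, adjusted p = 0.00014 by limma), and 8.08, 7.86 and 10.17 in uterine carcinoma against 4.09, 4.02, 4.33 and 4.61 (4.44 ± 0.53, adjusted p = 0.0011). Prostatic adenocarcinoma ran from 5.74 to 10.72 (median 9.16) against 3.98, 4.18 and 4.66 (4.39 ± 0.92, adjusted p = 0.0035). None of these overlapped, and the sorted samples lay at or just above the floor. The liver tumours ran from 4.03 to 9.45 (median 5.62) and overlapped untreated cells at 3.52 to 4.18 (2.60 ± 0.77, adjusted p = 0.011). Small intestinal adenoma read 5.63, 4.97 and 5.46 against 4.05, 3.89 and 4.09 in sorted cells at the floor (1.35 ± 0.25, adjusted p = 0.0084), without overlap, a call lost when the gene's probe sets were averaged. In gastric adenoma, at 4.64 to 6.88, the gene was not called.

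Falls were few. Col13a1 ran from 3.17 to 5.56 (median 4.07) in the liver tumours against 6.41 to 10.23 (median 8.35) in DDC-treated cells, without overlap (-4.34 ± 0.47, adjusted p = 3.8e-06 by limma), and was lower than in untreated cells too (-3.43 ± 0.55, adjusted p = 0.0001), where 1 sample (5.10) lay within the tumours' range. The endothelial score moved with Col13a1 between liver tumours and cells, and its part was not tested. Col27a1 was lower in liver tumours than in untreated liver (6.85 against 9.04; -2.20 ± 0.62, adjusted p = 0.0083) and did not pass the call rule against DDC-treated cells (0.96 ± 0.37, adjusted p = 0.05). Col9a3 read 3.39, 3.43, 3.09 and 2.71 in gastric adenocarcinoma against 6.61 and 7.06 in sorted stomach, a fall to the floor (-3.68 ± 0.33, a lower bound, adjusted p = 0.00026). In prostatic adenocarcinoma Col13a1 and Col20a1 were called lower than in sorted prostate, and kept that call in all 17 alternatives that still tested them. Their differences there ran from -2.75 to -1.27 and from -1.58 to -1.31. Col20a1 had a mean of 4.89 in sorted prostate, near the floor. FACIT chains also rose: Col14a1 read 9.53, 5.44 and 8.66 in small intestinal adenoma against 3.27, 2.81 and 3.09 (at least 4.82, SE 0.95, adjusted p = 0.01).

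Between tumour types, squamous cell carcinomas were distinguished by the collagens of epidermal attachment. In the 7 perineal and perioral tumours, compared with 5 types of internal carcinoma (31 samples), 4 of 29 tested members were called higher and 3 lower, against 10.6% and 13.7% of all tested genes, shares near those over all genes (medians 0.06 and -0.12). Col17a1, which spans the hemidesmosome, read 10.00, 8.93, 10.42 and 8.46 in perineal and 10.20, 10.59 and 10.53 in perioral tumours. Internal carcinomas did not exceed 7.61, and the difference was 5.79 ± 0.40 (adjusted p = 2.7e-17 by limma). Col7a1, which anchors the basement membrane below it, read 7.59, 5.79, 8.05 and 6.12 in perineal and 8.20, 8.69 and 8.38 in perioral tumours (2.83 ± 0.28, adjusted p = 2.6e-12) and overlapped with uterine and gastric carcinoma. The 1 periorbital tumour, outside the test, read 10.00 for Col17a1 and 7.65 for Col7a1. Of the 7 basal and squamous markers tested, 6 were higher too, with scores of 10.5 (10.2 to 10.8) and 10.9 (10.8 to 10.96) in the squamous groups. Col13a1 was higher by 1.68 ± 0.29 (adjusted p = 2.7e-06), and Col4a5 (-1.58) and Col27a1 (-1.35) were lower.

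Uterine carcinoma shared part of that pattern. Col17a1 read 7.61, 4.56 and 7.10 in the carcinomas against 3.23, 2.89, 3.52 and 3.16 in sorted uterus (3.22 ± 0.67, adjusted p = 0.01 by limma), without overlap, and 10.31 and 10.94 in the abdominal and liver metastases. Against the other internal carcinomas, 8 of 28 tested members were higher and 0 lower (8.38% and 5.53% of all genes; medians 1.15 and 0.04; 2 lower at an unadjusted p under 0.05 by limma), but 2 calls were left without uterine carcinoma replicate 3. Col17a1 (2.83 ± 0.56, adjusted p = 0.0002) and Col7a1 (1.95 ± 0.39, adjusted p = 0.00019) were among those 8. The basal and squamous score followed the same order, at 5.71 to 8.85 in the carcinomas, 10.5 and 10.9 in the metastases and 4.98 to 6.19 in sorted uterus, and its part was not tested. Col26a1 was called higher (1.73 ± 0.36, adjusted p = 0.00032) through replicate 3 alone, which read 7.60 beside 3.34 and 3.03.

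**Figure D5:**
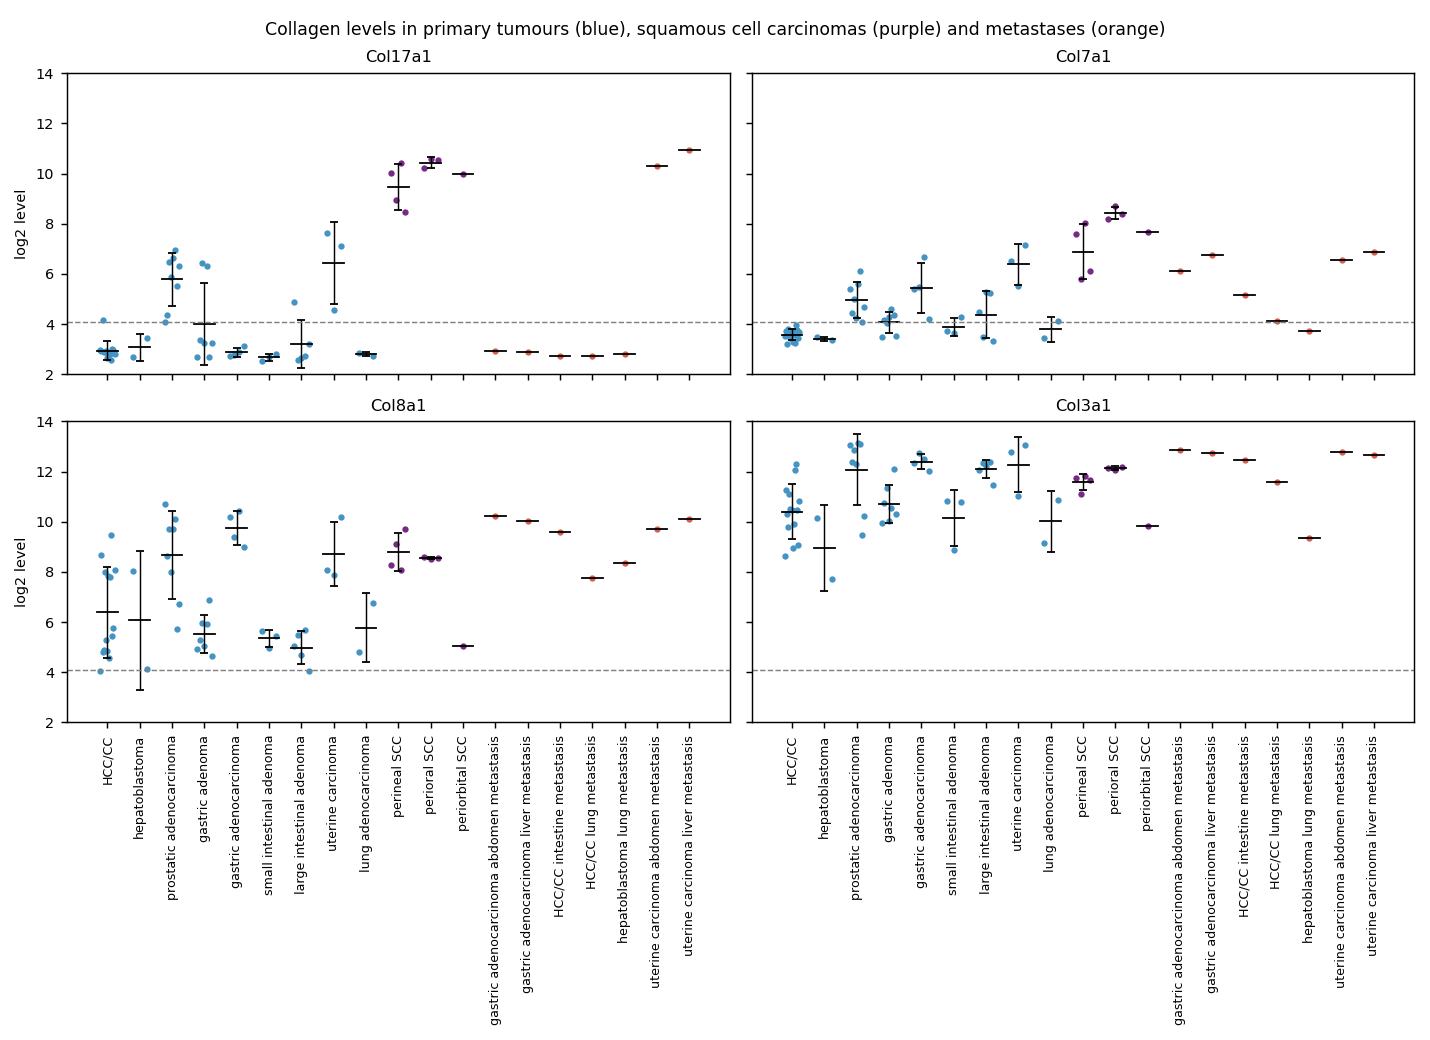
Log2 level of Col17a1, Col7a1, Col8a1 and Col3a1 in each primary tumour sample of 12 groups and in the 7 metastases (1 array each), with the floor of 4.10 dashed. Col17a1 lies between 8.46 and 10.59 in the 8 squamous cell carcinomas and at 10.31 and 10.94 in the uterine metastases, and Col8a1 lies between 8.98 and 10.45 in the 4 gastric adenocarcinomas against 4.64 to 6.88 in the adenomas.

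Gastric adenocarcinoma carried more collagen than gastric adenoma. Of 24 tested members, 10 were higher and 2 lower, against 13.7% and 11.4% of all tested genes (medians 1.17 and 0.09). Col8a1 was higher by 4.22 ± 0.84 (adjusted p = 7e-05 by limma), with the adenomas at 4.64 to 6.88 (median 5.29). Col4a1 was higher by 1.99 ± 0.48 (adjusted p = 0.00075), Col4a2 by 1.96 ± 0.49 and Col5a1 by 2.25 ± 0.67 (adjusted p = 0.0057), all without overlap. Col1a1 was higher by 2.54 ± 0.88 (adjusted p = 0.017), a call lost without adenocarcinoma replicate 2. Col6a4 and Col9a3 fell: Col9a3 read 3.95 to 7.23 (median 5.06) in adenomas (-2.02 ± 0.39, adjusted p = 5.3e-05) and Col6a4 3.79 to 6.25 (median 4.66) against 3.22, 3.24, 2.97 and 3.75 (-1.45 ± 0.34, adjusted p = 0.0005). Fibroblast scores were 4.82 (4.22 to 5.46) and 4.38 (3.71 to 4.66), and smooth muscle scores 6.33 and 6.67, so the mean of the latter was not higher in the adenocarcinomas. All 7 leukocyte markers were called higher in the adenocarcinomas (median 1.45), and their part was not tested.

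Large and small intestinal adenomas differed at Col6a4. It read 8.08, 8.33, 7.83, 6.21 and 6.16 in large and 5.80, 4.87 and 5.74 in small intestinal adenoma (1.853 ± 0.39, adjusted p = 0.00077 by limma), without overlap. Both kinds were above sorted small intestine, at 3.40, 3.74 and 3.48; the difference of small intestinal adenoma from sorted cells, 1.93 ± 0.31 (adjusted p = 0.005), was lost when probe sets were averaged. Of 22 tested members 8 were higher and 1 lower in large intestinal adenoma (6.6% and 6.32% of all genes; medians 1.41 and -0.08), but the count of 9 was unstable. It fell to 3 without any 1 of the small intestinal adenomas, and to 5, 3, 2 and 3 without large intestinal adenoma replicates 1, 2, 3 and 4. Col9a3 was lower (-2.13 ± 0.46, adjusted p = 0.00094), the small intestinal adenomas reading 6.55, 3.25 and 5.80.

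The metastases, with 1 array each, carry no test. Col3a1 read 12.86 and 12.76 in the abdominal and liver metastases of gastric adenocarcinoma, 12.79 and 12.67 in those of uterine carcinoma, 12.46 and 11.58 in the intestinal and lung metastases of hepatocellular carcinoma/cholangiocarcinoma, and 9.35 in the lung metastasis of hepatoblastoma. None of the 7 lay below the range of its primary tumours. Col4a5 read 9.25 and 9.79 in the metastases of hepatocellular carcinoma/cholangiocarcinoma against 3.05 to 9.38 (median 4.36) in the primaries, and Col4a6 7.19 and 7.53 against 3.20 to 7.42 (median 3.64). Col18a1 read 10.53 in the hepatoblastoma metastasis, and 10.41 and 9.60 in the 2 hepatoblastomas. The liver metastasis of uterine carcinoma also carried hepatocyte markers at a mean of 12.03, against 3.65 in the abdominal one.

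Within hepatocellular carcinoma/cholangiocarcinoma, the group with the most samples, collagens of different classes rose and fell together from tumour to tumour. Over 14 tumours, Col1a1 and Col3a1 correlated at Pearson's r = 0.94 and Spearman's rho = 0.96 (adjusted permutation p = 4.7e-05 over 14 relations, from 100000 permutations whose smallest p is 1e-05; r = 0.89 without the 2 samples farthest from the median). Col3a1 and Col5a2 gave r = 0.93 and rho = 0.96 (adjusted p = 0.00014; 0.89), Col6a1 and Col6a2 r = 0.92 and rho = 0.93 (0.93), and Col4a1 and Col4a2 r = 0.94 and rho = 0.95 (0.93). Col1a1 also followed Col4a1 (r = 0.86, rho = 0.91, adjusted permutation p = 0.00014; 0.78), but not Col18a1 (r = -0.19, rho = -0.29, adjusted permutation p = 0.62). Col1a1 and Col1a2 gave r = 0.84 and rho = 0.71 (adjusted permutation p = 0.00066), which fell to 0.56 without the 2 farthest samples, Col1a2 lying under the floor in all 14 tumours. In the 9 DDC-treated liver samples Col4a1 and Col4a2 gave r = 0.99 and rho = 0.93 (exact permutation p = 8e-05, adjusted p = 0.00019, and r = 0.98 without 2 samples). The other 6 relations had adjusted permutation p of r between 0.5 and 0.95, but some depended on 2 samples. Without the 2 farthest, r went from 0.38 to 0.84 for Col6a1 and Col6a2 and from -0.31 to 0.69 for Col1a1 and Col1a2. For Col1a1 it then was 0.60 with Col3a1, 0.22 with Col18a1 and -0.22 with Col4a1. Col3a1 and Col5a2 gave -0.29. All samples of a group share one preparation and array type, and the tumours' labels do not separate hepatocellular from bile duct carcinoma.

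Genes that make, process and bind collagen were counted from lists by role. In sorted uterus, where 15.3% of all tested genes were called higher and 7.38% lower, 9 of 10 tested processing and cross-linking genes were higher and 0 lower, among them Loxl1 (3.38 ± 0.37) and Lox (2.81 ± 0.35), which cross-link fibrils. In the same cells 8 of 11 collagen-binding proteoglycan genes were higher, led by Lum (6.15 ± 0.58) and Dcn (4.66 ± 0.59), and 6 of 17 modification and folding genes, among them Plod2 (3.32 ± 0.33) and the chaperone gene Serpinh1 (3.08 ± 0.52). In sorted kidney, against 16.3% higher and 17.2% lower over all genes, 1 of 11 proteoglycan genes was higher and 8 lower, Dcn among them (-5.94 ± 0.59), whereas 7 of 17 modification genes were higher and 3 lower, led by P3h2, a prolyl 3-hydroxylase (4.64 ± 0.43). Basement membrane partners split there too, with 3 of 10 higher, among them Lamb1 (3.47 ± 0.41), and 3 lower.

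In gastric adenocarcinoma and small intestinal adenoma, genes of the same lists were called higher beside the fibrillar genes. In gastric adenoma the modification genes were not. Gastric adenocarcinoma, with 17.9% of all tested genes called higher, had 7 of 10 processing genes higher, among them Pcolce (4.93 ± 0.44) and Loxl1 (4.67 ± 0.39), 9 of 9 degradation genes, among them the inhibitor gene Timp2 (5.87 ± 0.35), and 7 of 9 basement membrane partners, among them Nid1 (5.79 ± 0.28). It had 5 of 7 receptor genes higher, among them Ddr2 (2.79 ± 0.44) and Itgb1 (2.48 ± 0.21). Gastric adenoma (8.07% higher and 3.07% lower over all genes) had 7 of 9 proteoglycan genes higher and 0 of 15 modification genes in either direction by limma, with 3 higher and 2 lower at an unadjusted p under 0.05. Between the 2 gastric tumour types (13.7% higher and 11.4% lower over all genes), 8 of 16 modification genes were higher and 1 lower in adenocarcinoma, and 7 of 10 processing genes were higher. Small intestinal adenoma (13.6% and 8.43%) had 6 of 13 modification genes higher, with P4ha2, a prolyl 4-hydroxylase subunit, at 3.66 ± 0.45, and 1 lower. Liver tumours had 4 of 9 processing genes higher than untreated liver, among them Lox (2.24 ± 0.62), and 2 of 17 modification genes, beside 17.4% of all genes. Prostatic adenocarcinoma (12.4% higher) had 6 of 10 processing genes higher, among them Bmp1, which trims procollagen (3.28 ± 0.60). Uterine carcinoma had 3 of 11 proteoglycan genes lower and 1 higher, against 10.1% and 8.57% of all genes, with the matrix gene Tnxb at -4.12 ± 0.32. These lists were chosen with earlier results of these data known, and their counts describe the tested genes only.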

How the data were processed

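RNA of 103 mouse samples was measured on Affymetrix mouse arrays. The log2 values per probe set were used as deposited by the authors; the submitters' processing notes name Partek 6.6, and how probe signals were corrected, normalized and summarized is not given in the sources used here. Of 45141 probe sets, 28898 had 1 gene symbol, 551 had several and 15588 were not in the annotation given with the platform, which names no build.

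Samples were grouped from the labels' tissue, source and description fields. Each gene kept its probe set with the highest mean. A gene was tested where a group mean in the fit passed the 40th percentile of values. limma 3.58.1 (lmFit and eBayes, R 4.3.3) was fitted over all tested genes, with all sorted groups in 1 fit, 55 primary tumours (all but the periorbital one) in another, and only the 2 groups concerned in each tumour against sorted-cell fit. Calls needed a Benjamini-Hochberg adjusted p of at most 0.05 and a log2 difference of at least 1. The fits were tested on simulated data. Counts, correlations and figures came from scipy 1.17.1, pandas 2.3.3, matplotlib 3.10.9 and numpy 2.4.6 under Python 3.11.15. The members, the gene lists and the comparisons were chosen with earlier results of these data known. Every member was shown in the plot of mean levels by group, but not every member or called difference was named in the text. Col8a2, Col11a1 and Col25a1 were not. Genes were named in full by a fixed list of 10 collagens, by the size of called differences without overlap, and by role. The alternatives were quantile normalization, centring on the array median, averaging all probe sets of a gene, leaving out probe sets with _x_at or _s_at names, other filters, array weights and leaving out each sample in turn. The number of arrays limits the precision.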

Additional observations from a re-analysis of the deposited data

Results flagged for a closer look

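Over 196 tests of single samples within groups of 4 to 10, 7 lay apart from their group by Dixon's criterion, and chance flags about 1 in 20 such groups. Col10a1, a hypertrophic cartilage chain near background elsewhere, read 9.31 in prostatic adenocarcinoma replicate 1, with the next sample at 5.03. Col6a3 read 6.62 in prostatic adenocarcinoma replicate 7, below the next at 8.87. In gastric adenocarcinoma, Col14a1 read 6.94 in replicate 3 (next 6.07) and Col16a1 read 5.39 in replicate 4 (next 7.08). Col18a1 read 7.25 in large intestinal adenoma replicate 5 (next 8.67), Col4a4 read 5.44 in sorted liver replicate 2 (next 4.04) and Col5a3 read 5.60 in sorted uterus replicate 3 (next 4.94).

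Called differences of opposite sign between tumour and sorted cells occurred for 2 members without overlap of samples. Col15a1 was higher in gastric adenocarcinoma than in sorted stomach (1.98) and lower in uterine carcinoma than in sorted uterus (-1.77), and both calls were lost in some alternatives, the second without sorted uterus replicate 2 or 3. Col6a4 was higher in small intestinal adenoma than in sorted small intestine (1.93) and lower in uterine carcinoma than in sorted uterus (-5.61). The difference between these contrasts was not tested.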

How the results depend on the processing

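Of 243 called member differences in the 22 comparisons, 157 kept their call in every alternative that still tested the gene. The other 86 lost it at least once, and none changed sign. A gene that a setting no longer tested was not counted as lost there, and every count of alternatives given above leaves such settings out. With the filter at the 60th percentile, the count of called members was 3 for DDC-treated against untreated liver, 8 and 7 for hepatocellular carcinoma/cholangiocarcinoma against untreated and DDC-treated liver, and 2 for bronchopulmonary adenocarcinoma; that filter tests fewer genes. With all probe sets of a gene averaged, the DDC count was 2, and with array weights the counts were 8 for neonatal liver, 4 for bronchopulmonary adenocarcinoma and 15 for large against small intestinal adenoma; the cause was not tested. The other 146 counts under such settings stayed within 1.5 times. The 56 correlations under their alternatives kept their sign and their side of the adjusted p threshold. No limit on the change in their size was applied.

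Leaving out 1 sample at a time, called members ranged from 0 to 4 in bronchopulmonary adenocarcinoma, 2 to 11 in uterine carcinoma against the other internal carcinomas and 4 to 10 against sorted uterus, 2 to 10 in large against small intestinal adenoma and 7 to 15 in prostatic adenocarcinoma. Among sorted cells they ranged from 5 to 11 in prostate, 4 to 10 in stomach, 2 to 6 after DDC and 3 to 7 in neonatal liver. In each of the other comparisons the range stayed within 1.5 times the count with all samples.

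Quantile normalization moved the median difference of all genes by over 0.1 in 9 comparisons, for example from 0.30 to 0.11 for the liver tumours against untreated liver and from 0.18 to -0.11 for gastric adenocarcinoma. The share of calls that were higher, over all genes, moved with it: 74.7% to 59.5% after DDC, 71.9% to 58.5% in neonatal liver, 73.6% to 59.2% in the liver tumours against untreated liver, 58.8% to 45.3% in prostatic adenocarcinoma, 72.5% to 49.7% in gastric adenoma, 63% to 45.7% in gastric adenocarcinoma, 61.7% to 50.1% in small intestinal adenoma and 70.7% to 56.6% in bronchopulmonary adenocarcinoma. The median of the tested collagens moved from 0.98 to 0.87 and from 2.25 to 2.11 in the first 2 of these examples. Centring on the array median moved the median of all genes by over 0.1 in sorted lung alone. No paired analysis was possible because the labels give no shared replicate numbers. Members at the floor give only bounds, and groups of 1 to 3 arrays limit every comparison that uses them.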
